A study of Homo sapiens with 18 samples.

Results

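Cadherins and protocadherins are surface proteins that bind each other between neighbouring cells through repeated calcium-binding domains. The genes described here are those whose symbol is CDH followed by a number or PCDH followed by letters and numbers, and each was represented by its brightest probe set over all arrays. This gave 34 genes of the 14884 with a named probe set, carried by 36 of the 48226 probe sets on the array. They were 16 genes of the beta protocadherin cluster, 3 pseudogenes of that cluster (PCDHB17P, PCDHB18P and PCDHB19P), 13 protocadherins outside the clusters and 2 cadherins, CDH23 and CDH26. The classical cadherins and the alpha and gamma protocadherin clusters had no named probe set in the annotation used, so they were not analysed here.

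The arrays measured RNA of cultured U937 cells, a human myeloid line long established in the laboratory, after treatment with agents that act on chromatin. Decitabine (5-aza-2'-deoxycytidine) inhibits DNA methyltransferases, and panobinostat and valproic acid inhibit histone deacetylases. The 18 arrays fell into 6 groups of 3: decitabine plus panobinostat, decitabine plus valproic acid, panobinostat alone, valproic acid alone, decitabine alone, and control. Cells received 3 decitabine pulses of 24 h each, and in the combinations the inhibitor was present for 24 h with the final pulse. The treatment protocol gives no separate exposure time for an inhibitor used alone. The sample names carry 50 for decitabine, 8 for panobinostat and 1 for valproic acid, with no unit, and do not say what the control cells received. All groups are the same cell line. Whether replicate arrays stand for independent cultures is not stated, so the p-values measure the spread between arrays, which may be technical. RNA came from whole cultures, so a change in the share of cells that express a gene cannot be told apart from a change in RNA per cell.

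The clustered protocadherin genes lie in tandem on chromosome 5, and each beta gene has its own promoter and encodes a whole protein without splicing to shared exons. In neurons each cell is known to express only a few of them, and this choice depends on promoter DNA methylation and on CTCF, an architectural DNA-binding protein that binds a short element shared by most of these promoters. CDH23, on chromosome 10, is known for the tip links of inner ear hair cells. Both kinds of gene are known mainly from nerve and sensory cells rather than from blood cells.

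Promoters of 27 of the 34 genes, 14 of them beta genes, were found in the RefSeq promoter table (build GRCh38.p14, 250 bases before to 50 after each gene's start). The 9-base word GGTGGCGCT was chosen after a search for the word that most beta promoters share, and it contains CGCT, the core of the known shared element. On either strand it was present in 13 of the 14 beta promoters (92.9%) and absent from that of PCDHB1, while 0.501% of all 35116 promoters in the table held it. CGCT itself was present in 100% of the beta promoters and in 70% of all promoters. The stretches below belong to 8 of the 9 beta genes called in a comparison, and the capitals mark the shared word. PCDHB8, the ninth, is not shown because its word begins 2 bases before the start, so that a stretch of the same length would run past the start.
PCDHB2, chr5:141094535-141094594, plus strand: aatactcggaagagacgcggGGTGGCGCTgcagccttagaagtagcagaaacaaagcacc
PCDHB3, chr5:141100384-141100443, plus strand: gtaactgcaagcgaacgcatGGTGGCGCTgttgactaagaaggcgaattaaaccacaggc
PCDHB7, chr5:141172557-141172616, plus strand: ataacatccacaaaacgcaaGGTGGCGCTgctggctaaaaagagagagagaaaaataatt
PCDHB16, chr5:141182301-141182360, plus strand: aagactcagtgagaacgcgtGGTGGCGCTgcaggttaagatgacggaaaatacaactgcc
PCDHB9, chr5:141187065-141187124, plus strand: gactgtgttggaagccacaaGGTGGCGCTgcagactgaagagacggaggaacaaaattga
PCDHB10, chr5:141192290-141192349, plus strand: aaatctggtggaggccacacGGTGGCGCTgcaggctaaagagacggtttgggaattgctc
PCDHB12, chr5:141208634-141208693, plus strand: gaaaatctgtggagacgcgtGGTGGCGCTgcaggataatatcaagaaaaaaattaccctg
PCDHB14, chr5:141223254-141223313, plus strand: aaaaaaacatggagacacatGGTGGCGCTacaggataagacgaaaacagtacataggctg
The word was found among beta genes called in a comparison below and among those called in none. All 9 that were called held it, and so did 4 of the 5 that were not called and had a promoter in the table (PCDHB4, PCDHB5, PCDHB13 and PCDHB15). The beta promoters were poor in CpG, the dinucleotide that DNA methyltransferases modify, with a median of 6 (range 4 to 11) in the 250 bases before the start, beside a median of 11 over all promoters. The 3 CDH23 promoters in the table held 34, 1 and 5, the most upstream first, and the arrays do not tell which was in use. Promoters of PCDH19 and PCDH9, genes called in no comparison, held 21 and 20. The last 100 bases before the most upstream CDH23 start are shown because CDH23 was the gene of the set that changed with decitabine alone, with each CpG in capitals.
CDH23, chr10:71396820-71396919, plus strand: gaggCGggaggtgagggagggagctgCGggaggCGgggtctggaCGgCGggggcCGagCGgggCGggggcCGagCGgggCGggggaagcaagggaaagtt

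Signals are given as log2 values, so a difference of 1 is a doubling. In control cells 12 of the 34 genes lay above the median of all probe sets on the array (3.82), against 62.8% of all named genes. The 12 were 9 beta genes, 2 non-clustered protocadherins and 1 cadherin. Probe sets differ in brightness, so levels are compared here only within a gene. Neighbouring beta genes are close copies, and probes that read more than 1 copy would share signal between them.

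Several genes of the beta cluster rose with a histone deacetylase inhibitor, given alone or with decitabine. PCDHB2, PCDHB7, PCDHB9, PCDHB10 and PCDHB16 rose by 1.82- to 2.56-fold with decitabine plus panobinostat. PCDHB2, PCDHB9, PCDHB10 and PCDHB16 rose with decitabine plus valproic acid, PCDHB2 and PCDHB9 with valproic acid alone, and PCDHB12 with panobinostat alone. Decitabine alone changed no beta gene past the test, and CDH23 was the gene it raised. A gene is said to have risen, fallen or been called where limma's adjusted p (Benjamini-Hochberg over all 14884 genes of the comparison) was under 0.05. Every one of the 28 calls over 13 comparisons was a rise. These calls fell on 10 genes, in comparisons that share arrays. Most of the 34 genes lay under the array median in control, where a low signal limits what a fall can show. Over all genes, 1668 of the 3447 calls with decitabine plus panobinostat against control were rises.

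**Figure D1:**
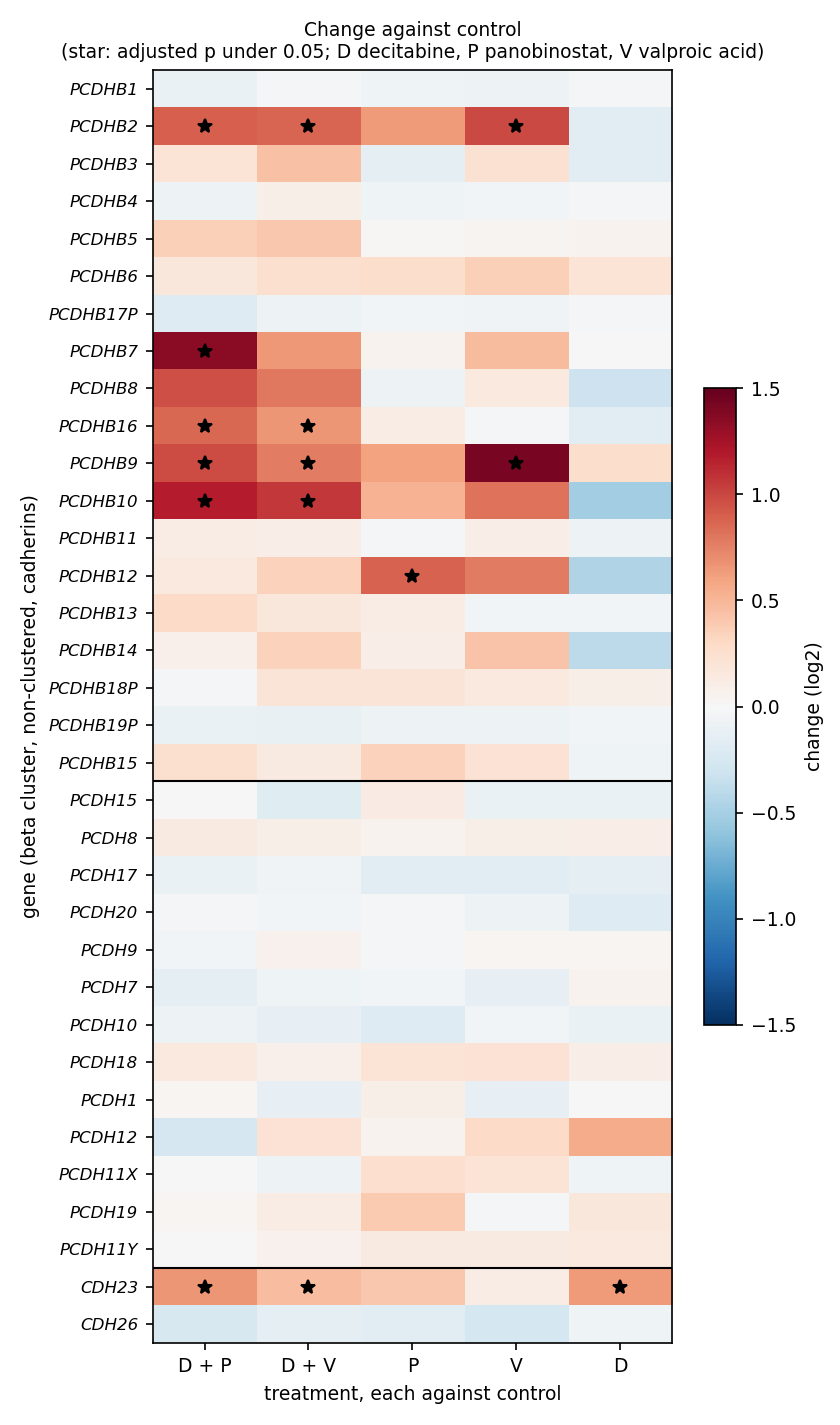
Change of each of the 34 genes against control (log2, colour scale from -1.5 to 1.5) with the 5 treatments, beta genes and pseudogenes in chromosome order above the non-clustered protocadherins and the cadherins. Stars mark adjusted p under 0.05, and they fall on 6 beta genes and CDH23.

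The mean signal of all 16 beta genes was 4.40, 4.42 and 4.59 on the arrays with decitabine plus panobinostat. Those with decitabine plus valproic acid gave 4.31, 4.54 and 4.45. It was 4.18, 4.22 and 4.19 with panobinostat, 4.42, 4.16 and 4.49 with valproic acid, 3.91, 3.93 and 3.79 with decitabine, and 4.04, 4.02 and 3.92 in control. All 12 arrays with an inhibitor lay above the 3 control arrays, and the decitabine arrays overlapped control. The other 18 genes averaged 3.49 to 3.55 with decitabine plus panobinostat, 3.48 to 3.60 with decitabine plus valproic acid, 3.55 to 3.63 with panobinostat, 3.47 to 3.57 with valproic acid, 3.50 to 3.68 with decitabine and 3.48 to 3.55 in control. The 3 panobinostat arrays lay above control here too, the lowest at 3.554 against a highest control array of 3.553, and the other 4 treated groups overlapped control.

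**Figure D2:**
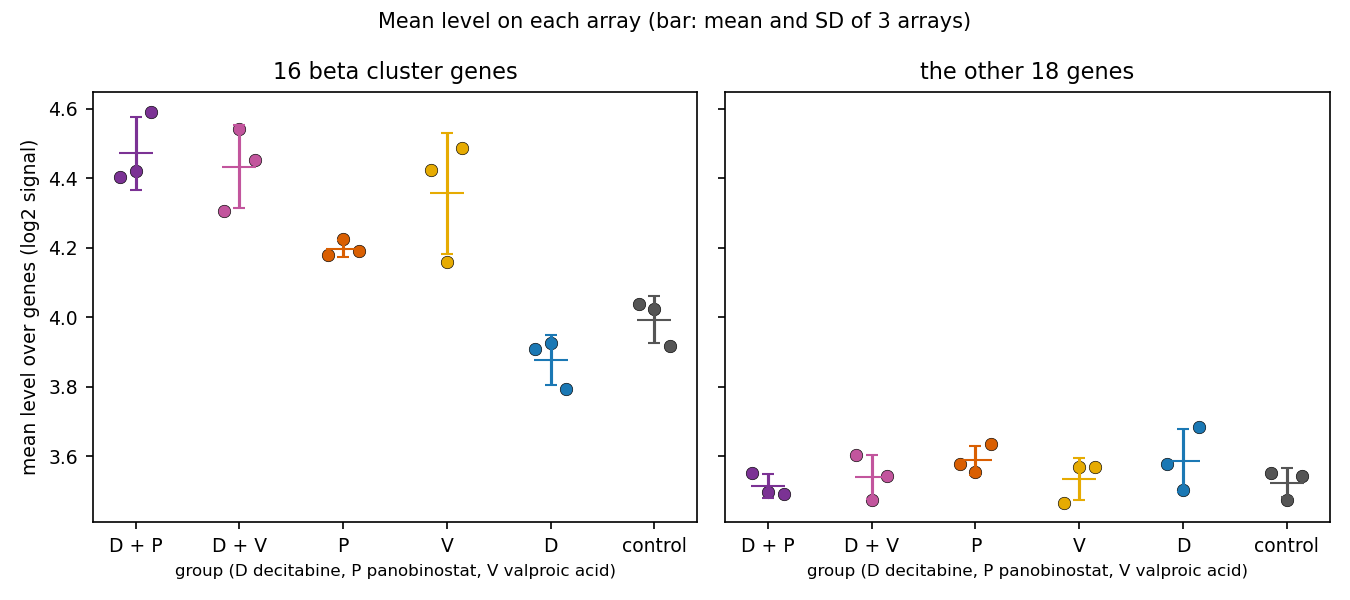
Mean log2 signal on each array over the 16 beta cluster genes (left) and the other 18 genes (right), by group, with a bar at the mean and SD of 3 arrays. The 12 arrays with an inhibitor sit above the control arrays on the left, while on the right the panobinostat arrays lie just above control and the other 4 treated groups overlap it.

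With decitabine plus panobinostat, 6 of the 34 genes rose and 0 fell (17.6%), beside 23.2% of all genes called in either direction and 11.2% called higher. Among the 16 beta genes 5 rose, 14 changes were positive, and the median change was 0.26, beside -0.022 over all genes. The share called in the whole set thus lies under that of all genes called in either direction and over that called higher, and these counts carry no test of the set. The 5 treatments were all compared with the same 3 control arrays.

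PCDHB7 had the largest rise with decitabine plus panobinostat. Its signal was 5.00, 4.93 and 4.74 with decitabine plus panobinostat, 3.64, 4.22 and 4.67 after decitabine plus valproic acid, and 3.48, 3.58 and 3.53 in control. With single agents it was 3.35, 3.52 and 3.89 for panobinostat, 4.22, 3.61 and 4.19 for valproic acid, and 3.61, 3.44 and 3.52 for decitabine. The 3 arrays with decitabine plus panobinostat stood above all other arrays of the series. The change against control was 1.36 (SE 0.21, 2.56-fold, adjusted p = 0.000201). Against decitabine alone it was 1.36 (SE 0.21, adjusted p = 0.000445) and against panobinostat alone 1.30 (SE 0.21, adjusted p = 0.00102). The combination exceeded the sum of the changes with each agent by 1.30 (SE 0.30), which did not pass the test over all genes (adjusted p = 0.0685). With decitabine plus valproic acid the change of 0.64 against control missed the threshold (adjusted p = 0.0502), and the difference between the combinations was 0.71 (95% interval 0.26 to 1.17, adjusted p = 0.158).

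PCDHB10 and PCDHB16, also in the middle of the cluster, were called against control only with the combinations. PCDHB10 read 6.57, 6.57 and 6.28 with decitabine plus panobinostat, 6.17, 6.55 and 6.33 after decitabine plus valproic acid, and 5.87, 4.80 and 5.20 in control. With single agents it read 5.65, 5.87 and 5.91 for panobinostat, 5.87, 6.19 and 6.24 for valproic acid, and 4.88, 5.67 and 3.76 for decitabine. All 6 combination arrays were above every control array, and the decitabine arrays were the most scattered (SD 0.96). The valproic acid arrays were above control too, the lowest at 5.874 against a highest control array of 5.870. The changes against control were 1.18 with decitabine plus panobinostat (SE 0.34, 2.27-fold, adjusted p = 0.0184) and 1.06 with decitabine plus valproic acid (2.09-fold, adjusted p = 0.0427). The first call was lost without control replicate 2 or 3 or decitabine plus panobinostat replicate 1 or 2 (adjusted p up to 0.0939). The second was lost without control replicate 2 or 3 or any array of decitabine plus valproic acid (adjusted p up to 0.175). The changes of 0.81 with valproic acid alone (adjusted p = 0.188) and 0.52 with panobinostat alone (adjusted p = 0.466) were not called. Adding decitabine moved PCDHB10 by 0.25 on top of valproic acid (adjusted p = 0.819) and 0.66 on top of panobinostat (adjusted p = 0.287). A response confined to the combinations is thus not shown.

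PCDHB16 had 6.10, 5.34 and 5.78 with decitabine plus panobinostat, 5.22, 5.70 and 5.70 after decitabine plus valproic acid, and 4.64, 5.26 and 4.74 in control. Its single-agent signals were 5.30, 4.80 and 4.84 for panobinostat, 5.02, 4.62 and 4.91 for valproic acid, and 4.69, 4.59 and 4.86 for decitabine. The single-agent arrays lay within or next to the control range. The rise was 0.86 with decitabine plus panobinostat (SE 0.21, 1.82-fold, adjusted p = 0.00658) and 0.66 with decitabine plus valproic acid (1.58-fold, adjusted p = 0.0415), the second with 1 array overlapping control. The term for excess over the summed single agents was 0.92 (SE 0.30, adjusted p = 0.229) with panobinostat and 0.85 (SE 0.30, adjusted p = 0.442) with valproic acid. Neither passed the test, so a response confined to the combinations is not shown. The call with decitabine plus valproic acid was lost without its replicate 2 or 3 or control replicate 1 or 3 (adjusted p up to 0.159). It was also lost with only the compared arrays fitted (adjusted p = 0.0779), with an intensity trend in the prior spread (0.0665) and with the replicate number as a block (0.0562).

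PCDHB2, near the start of the cluster, was higher on every inhibitor array than on any control array. Its signal was 5.96, 6.12 and 6.51 with decitabine plus panobinostat, 5.76, 6.57 and 6.18 after decitabine plus valproic acid, and 5.46, 5.55 and 4.91 in control. Single agents gave 5.89, 5.83 and 6.10 for panobinostat, 6.32, 5.96 and 6.59 for valproic acid, and 5.10, 5.23 and 5.10 for decitabine. The rises were 0.89 with decitabine plus panobinostat (1.86-fold, adjusted p = 0.00567), 0.87 with decitabine plus valproic acid (1.83-fold, adjusted p = 0.00999) and 0.99 with valproic acid (1.98-fold, adjusted p = 0.0101), each with SE 0.21. With panobinostat alone the change of 0.63 was not called (adjusted p = 0.0916). Adding decitabine to valproic acid moved it by -0.12 (95% interval -0.57 to 0.34). Without control replicate 3, its lowest control array, the valproic acid call was lost (adjusted p = 0.057), and so was that with decitabine plus valproic acid, which was also lost without replicate 2 of that group (adjusted p up to 0.0594).

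With decitabine plus valproic acid, 5 of the 34 genes rose and 0 fell (14.7%), beside 17% of all genes called and 8.9% called higher. They were CDH23 and 4 of the 16 beta genes. Of the beta genes 15 had a positive change, and their median was 0.38, beside -0.016 over all genes. PCDHB9 kept its call in this comparison whichever array was left out. Between 2 and 5 of the genes were called across those fits, with 2 without control replicate 3 or without decitabine plus valproic acid replicate 2 or 3, and 3 without control replicate 1 or 2.

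PCDHB9 had its highest group mean with valproic acid alone. It read 5.84, 5.24 and 5.79 with valproic acid, 4.73, 4.68 and 4.99 with panobinostat, 4.54, 4.39 and 4.46 with decitabine, and 4.25, 4.10 and 4.23 in control. The combinations gave 5.35, 4.70 and 5.45 with panobinostat and 5.00, 4.91 and 4.99 with valproic acid. Every treated array was above every control array. The change with valproic acid was 1.43 (SE 0.18, 2.69-fold, adjusted p = 0.000155), the largest change against control among the 34 genes in any treatment. It was 0.97 with decitabine plus panobinostat (1.96-fold, adjusted p = 0.000707), 0.77 with decitabine plus valproic acid (1.71-fold, adjusted p = 0.00647) and 0.60 with panobinostat (adjusted p = 0.0509, not called). Decitabine plus valproic acid minus valproic acid was -0.66 (95% interval -1.03 to -0.28), just short of a call (adjusted p = 0.0508). Panobinostat minus valproic acid was -0.82 (95% interval -1.20 to -0.45, adjusted p = 0.117).

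With valproic acid alone these 2 beta genes, PCDHB2 and PCDHB9, were the calls among the 34 (5.88%), beside 7.47% of all genes called and 4.73% called higher. The median change of the beta genes was 0.23, with 12 of 16 positive, beside -0.0042 over all genes. The only call with panobinostat alone was PCDHB12 (2.94%), beside 7.39% of all genes called and 3.92% called higher. The median change of the beta genes was 0.11, with 11 of 16 positive.

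PCDHB12 was called with panobinostat alone and with neither combination. Its signal was 4.87, 5.42 and 4.79 with panobinostat, 5.31, 5.11 and 4.33 with valproic acid, 3.86, 3.80 and 3.40 with decitabine, and 3.91, 4.38 and 4.12 in control. With decitabine plus panobinostat it was 4.07, 4.73 and 4.04, and with decitabine plus valproic acid 4.21, 4.54 and 4.67. The 3 panobinostat arrays were above control and the decitabine arrays below it, while the combinations overlapped control. The rise with panobinostat was 0.89 (SE 0.25, 1.85-fold, adjusted p = 0.0431), and it was lost when any of the 6 arrays compared was left out (adjusted p up to 0.17). Decitabine plus panobinostat minus panobinostat was -0.74 (95% interval -1.28 to -0.21, adjusted p = 0.0822), and decitabine minus control -0.45 (adjusted p = 0.408). The change of 0.78 with valproic acid was not called (adjusted p = 0.0783), but was called with the replicate number as a block.

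**Figure D3:**
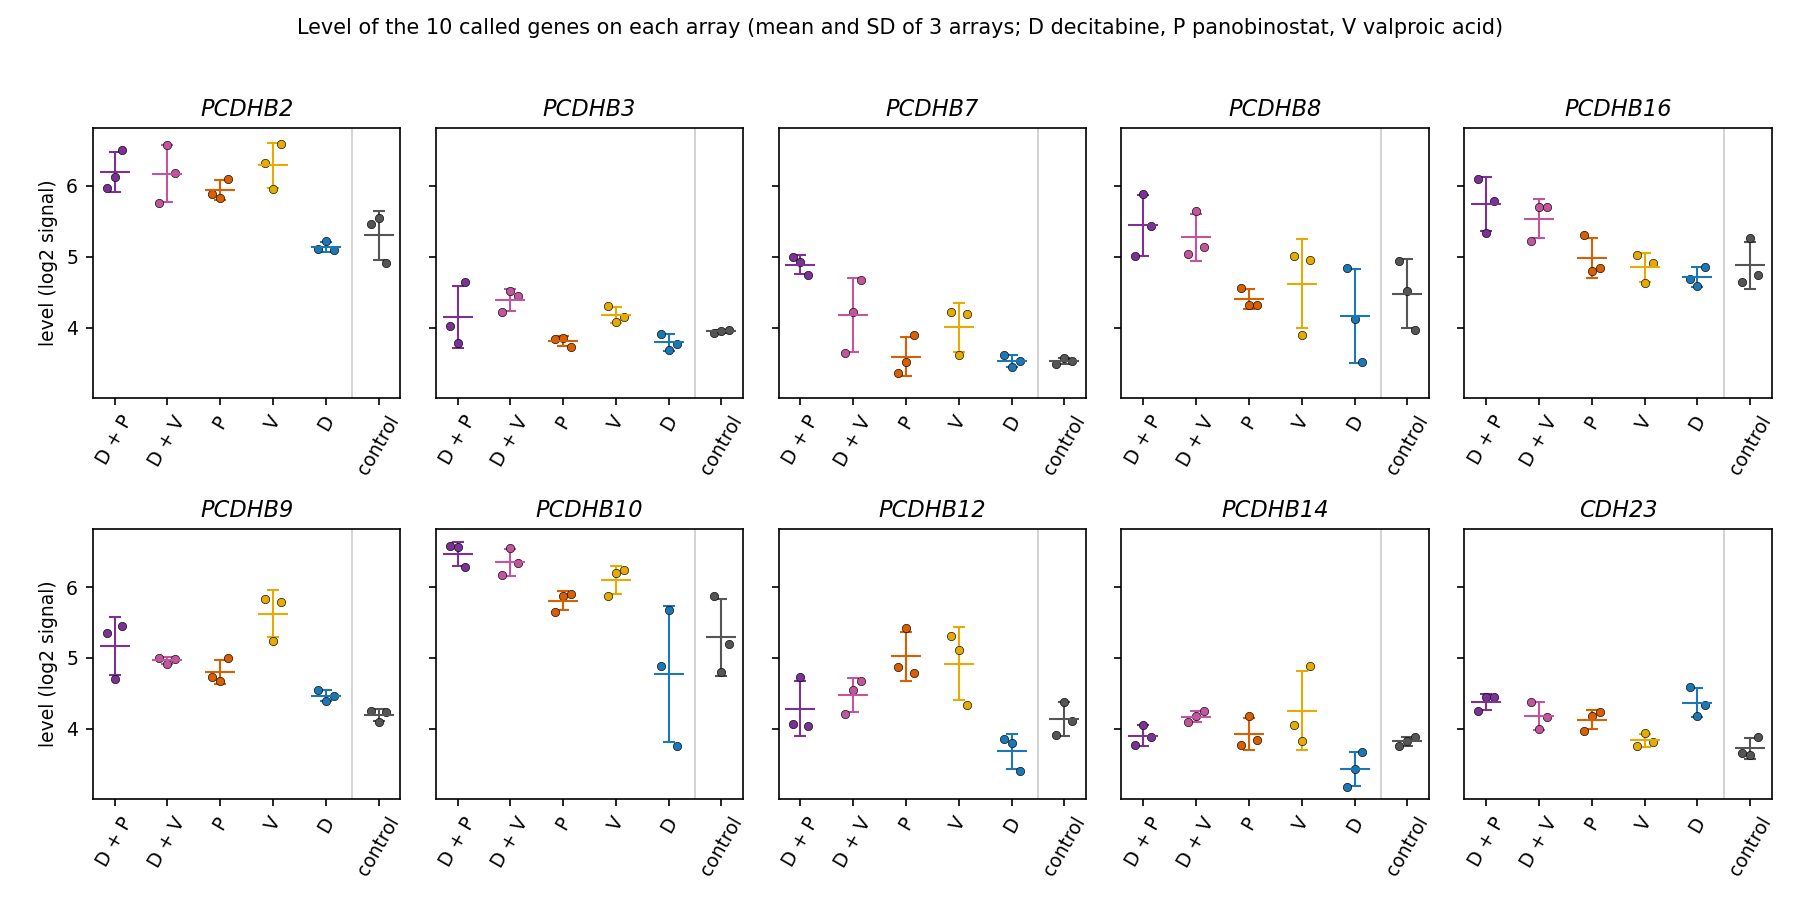
Log2 signal on each array (points) of the 9 beta genes and CDH23 that were called in any comparison, by group, with bars at the mean and SD of 3 arrays. For PCDHB7 the 3 arrays with decitabine plus panobinostat are the highest, the lowest of them at 4.74. The highest PCDHB7 array with decitabine plus valproic acid, at 4.67, lies just under them. For PCDHB9 the mean with valproic acid alone, 5.62, is the highest.

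With decitabine alone 1 of the 34 genes was called (2.94%), beside 3.96% of all genes called and 2.57% called higher. That gene was CDH23. Of the 16 beta genes 13 had a negative change, with a median of -0.071 and a range from -0.52 (PCDHB10) to 0.27 (PCDHB9), beside a median of -0.0075 over all genes. At an unadjusted p under 0.05 limma found 0 of the beta genes changed.

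CDH23 rose in the groups that received decitabine. It read 4.25, 4.45 and 4.44 with decitabine plus panobinostat, 4.38, 3.99 and 4.17 after decitabine plus valproic acid, 4.59, 4.19 and 4.33 with decitabine, and 3.65, 3.63 and 3.89 in control. With an inhibitor alone it read 3.98, 4.18 and 4.24 for panobinostat and 3.76, 3.94 and 3.81 for valproic acid. All 9 arrays with decitabine were above the control arrays, and so were those with panobinostat alone. The change was 0.66 with decitabine plus panobinostat (SE 0.13, 1.58-fold, adjusted p = 0.0014), 0.46 with decitabine plus valproic acid (1.37-fold, adjusted p = 0.0236) and 0.64 with decitabine (1.56-fold, adjusted p = 0.00909). With panobinostat it was 0.41 (adjusted p = 0.0752) and with valproic acid 0.11 (95% interval -0.17 to 0.39). Adding panobinostat to decitabine moved it by 0.013 (95% interval -0.26 to 0.29). Adding decitabine moved it by 0.25 on top of panobinostat (adjusted p = 0.293) and by 0.34 on top of valproic acid (adjusted p = 0.187). Neither was called, so a rise tied to decitabine is not set apart from that with panobinostat. The decitabine call was lost without decitabine replicate 1, its highest array (adjusted p = 0.0561), and the call with decitabine plus valproic acid without its replicate 1 or 3 or control replicate 1 or 2 (adjusted p up to 0.0981). The decitabine call was also lost with only the compared arrays fitted (adjusted p = 0.054), and the call with decitabine plus valproic acid with that setting (0.0775) and with an intensity trend (0.052).

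Setting each combination against decitabine alone asks what an inhibitor adds to cells already given decitabine. Adding panobinostat raised 6 of the 34 genes and lowered 0 (17.6%), beside 15.6% of all genes called and 7.66% called higher. All were beta genes: PCDHB2, PCDHB7, PCDHB8, PCDHB9, PCDHB10 and PCDHB16. The median change over the 16 beta genes was 0.42, beside -0.017 over all genes. Adding valproic acid raised 5 and lowered 0 (14.7%), beside 6.13% of all genes called and 3.57% called higher. These were PCDHB2, PCDHB3, PCDHB10, PCDHB14 and PCDHB16, and the median over the beta genes was 0.55, beside -0.0061.

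**Figure D4:**
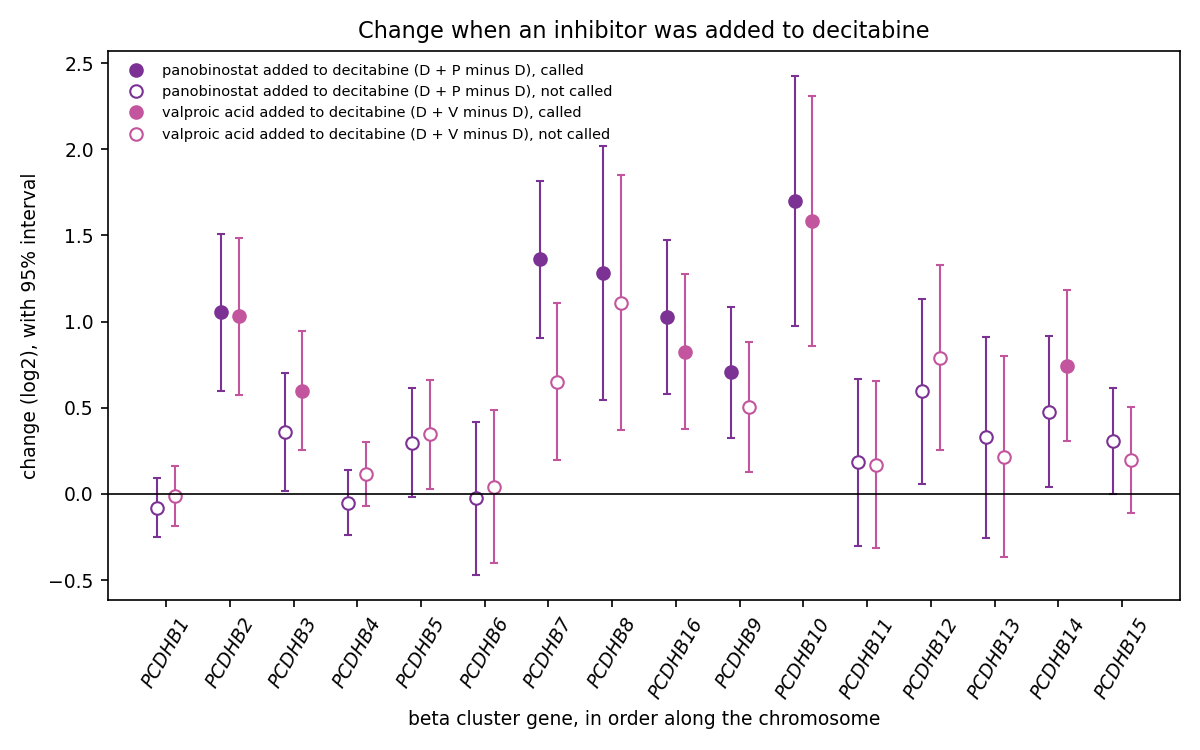
Change (log2, with 95% interval) of the 16 beta genes, in chromosome order, when panobinostat or valproic acid was added to decitabine. Filled points passed adjusted p under 0.05, and PCDHB10 has the largest change with either inhibitor, 1.70 and 1.58.

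The largest of these changes was that of PCDHB10, 1.70 with added panobinostat (SE 0.34, 3.25-fold, adjusted p = 0.00281) and 1.58 with added valproic acid (2.99-fold, adjusted p = 0.0128). The combination and decitabine arrays, listed above, did not overlap. PCDHB2 rose by 1.06 (2.08-fold, adjusted p = 0.00306) and 1.03 (2.04-fold, adjusted p = 0.0106), and PCDHB16 by 1.03 (2.04-fold, adjusted p = 0.00332) and 0.83 (1.77-fold, adjusted p = 0.0296). PCDHB9 rose by 0.71 with added panobinostat (1.63-fold, adjusted p = 0.0129), a call lost without decitabine plus panobinostat replicate 1 or 3 (adjusted p up to 0.0691) and with only the compared arrays fitted (0.0591). Its change with added valproic acid was 0.50 (adjusted p = 0.112).

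PCDHB8, which lies between PCDHB7 and PCDHB16, read 5.02, 5.88 and 5.43 with decitabine plus panobinostat, against 4.84, 4.12 and 3.52 with decitabine. It read 5.03, 5.64 and 5.14 with decitabine plus valproic acid and 4.94, 4.51 and 3.97 in control. The combination arrays were all above the decitabine and control arrays, but the spread within groups was wide. The rise over decitabine with panobinostat was 1.28 (SE 0.35, 2.43-fold, adjusted p = 0.0192), and it was lost without decitabine plus panobinostat replicate 2 or 3 or decitabine replicate 2 or 3 (adjusted p up to 0.103) and with only the compared arrays fitted (0.051). With added valproic acid it was 1.11 (adjusted p = 0.0718). Against control PCDHB8 changed by 0.97 with decitabine plus panobinostat (adjusted p = 0.0567) and 0.79 with decitabine plus valproic acid (adjusted p = 0.141). Neither was called.

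PCDHB3 and PCDHB14 were called in no other comparison than valproic acid added to decitabine. PCDHB3 read 4.21, 4.51 and 4.45 with decitabine plus valproic acid, against 3.91, 3.69 and 3.77 with decitabine (change 0.60, 1.52-fold, adjusted p = 0.0388). PCDHB14 read 4.09, 4.18 and 4.25, against 3.18, 3.44 and 3.67 with decitabine (change 0.74, 1.68-fold, adjusted p = 0.0437). In neither did the groups overlap. Control arrays of PCDHB14, at 3.76, 3.83 and 3.88, lay between them. Its changes against control were 0.35 with decitabine plus valproic acid (adjusted p = 0.302) and -0.39 with decitabine (adjusted p = 0.368), and neither was called. For PCDHB3 the change against control with decitabine plus valproic acid was 0.44 (adjusted p = 0.0753), also not called. Leaving out decitabine plus valproic acid replicate 2 ended all 5 calls of this comparison. Leaving out decitabine replicate 1, 2 or 3, or decitabine plus valproic acid replicate 3, kept only PCDHB2 and PCDHB10 of these 5. Without decitabine replicate 1 there were 3 calls, the third a gene outside the 5. The PCDHB14 call was lost whichever of the compared arrays was left out (adjusted p up to 0.158).

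The reverse addition puts decitabine on top of an inhibitor. Against panobinostat alone 2 of the 34 rose and 0 fell with decitabine plus panobinostat (5.88%), beside 9.55% of all genes called and 5.42% called higher. They were PCDHB7, given above, and PCDHB16, with a change of 0.76 (SE 0.21, 1.69-fold, adjusted p = 0.0326). Without decitabine plus panobinostat replicate 2 there were 4 higher calls and 1 lower, that of PCDHB12. Without decitabine plus panobinostat replicate 1 or 3, or panobinostat replicate 2 or 3, PCDHB7 alone was called. Against valproic acid alone limma called 0 of the 34 with decitabine plus valproic acid, beside 4.03% of all genes, and 4 had an unadjusted p under 0.05. In that comparison PCDHB16 had a change of 0.69 (95% interval 0.24 to 1.13, adjusted p = 0.0904). Leaving out decitabine plus valproic acid replicate 1 called PCDHB16 higher, and leaving out valproic acid replicate 2 called PCDHB9 lower.

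The agents of the same class were also set against each other, at doses whose units are not given. Panobinostat against valproic acid gave 0 calls among the 34 by limma, beside 0.121% of all genes, with 4 genes at an unadjusted p under 0.05. PCDHB9 had the largest difference, given above, and it was called lower without valproic acid replicate 2. For PCDHB2 the difference was -0.35 (95% interval -0.81 to 0.10), for PCDHB7 -0.42 (95% interval -0.87 to 0.041) and for PCDHB10 -0.29 (95% interval -1.02 to 0.43). Between the combinations limma also gave 0 calls, beside 0.652% of all genes, with 2 genes at an unadjusted p under 0.05. The difference was 0.025 for PCDHB2 (95% interval -0.43 to 0.48) and 0.12 for PCDHB10 (95% interval -0.61 to 0.85). PCDHB7, with its difference of 0.71, was called without decitabine plus valproic acid replicate 3.

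An interaction term asked whether a combination differed from the sum of its agents' changes. It called 0 of the 34 with panobinostat, beside 0.625% of all genes, and 0 with valproic acid, beside 0.0605%. An unadjusted p under 0.05 was reached by 8 genes with panobinostat, 5 of them beta genes, and by 2 with valproic acid. The largest terms with panobinostat were 1.36 for PCDHB8 (SE 0.49, adjusted p = 0.295), 1.30 for PCDHB7 and 1.18 for PCDHB10 (SE 0.48, adjusted p = 0.382). With valproic acid they were 0.97 for PCDHB8 (SE 0.49, adjusted p = 0.693) and -0.92 for PCDHB9 (SE 0.25, adjusted p = 0.259). PCDHB8 and PCDHB10 had the widest spread of the beta genes between arrays of a group (SD 0.48 and 0.47).

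Along the chromosome, 5 of the 9 beta genes called in any comparison were direct neighbours among the measured genes, in the order PCDHB7, PCDHB8, PCDHB16, PCDHB9 and PCDHB10. PCDHB2 and PCDHB3 formed a second run, and PCDHB12 and PCDHB14 stood apart. The beta genes called in none were PCDHB1, PCDHB4, PCDHB5, PCDHB6, PCDHB11, PCDHB13 and PCDHB15. Of these PCDHB5 came nearest, with changes of 0.36 with decitabine plus panobinostat (adjusted p = 0.106) and 0.40 with decitabine plus valproic acid (adjusted p = 0.0786). PCDHB1, the first gene of the cluster, stayed between 2.81 and 3.00 on all 18 arrays, and PCDHB13 had changes of at most 0.28 against control in its 5 comparisons. In control, all beta genes called in none except PCDHB13 lay under the array median (3.82). Of the called beta genes only PCDHB7 did so, with PCDHB14 at 3.82. A low signal limits what a change can show, and the part of signal level in these runs was not tested. Once group means were removed, the deviations of the beta genes on the 18 arrays had a median correlation of 0.11 over 120 gene pairs (range -0.64 to 0.77), beside 0.10 for pairs among the other 18 genes. Genes of a pair share arrays, and this is a description.

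No gene outside the beta cluster other than CDH23 was called in any of the 13 comparisons. The 13 non-clustered protocadherins include PCDH9, PCDH10, PCDH17 and PCDH20, adhesion genes known to be silenced by promoter methylation in several cancers. Their changes with decitabine ranged from -0.19 to 0.56 with a median of 0.024, and with decitabine plus panobinostat from -0.25 to 0.15 with a median of -0.0043. PCDH10, PCDH17 and PCDH20 stayed between 3.21 and 3.87 on all 18 arrays. Only 2 of the 13 lay above the array median in control, and 1 did so with either combination. The second probe sets of PCDH9 and PCDH17 had group means of 3.14 to 3.36 and 3.41 to 3.59.

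PCDH12, an endothelial protocadherin, varied most between arrays of a group (SD 0.55). It read 4.83, 4.27 and 5.50 with decitabine, 4.24, 4.18 and 3.76 with decitabine plus panobinostat, and 4.86, 3.81 and 4.26 in control. The decitabine and control arrays overlapped, and the change of 0.56 with decitabine was not called (95% interval -0.28 to 1.39, adjusted p = 0.541). PCDH19 had a change of 0.40 with panobinostat (adjusted p = 0.161). The pseudogenes changed by at most 0.20 in either direction against control, and CDH26, an epithelial cadherin, by -0.26 to -0.060, with no call.

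Genes that work with cadherins were taken from 5 lists written from general knowledge. Their counts carry no test and stand beside all genes, of which 23.2% were called and 11.2% called higher with decitabine plus panobinostat (median -0.022), and 17% and 8.9% with decitabine plus valproic acid (median -0.016). Of 14 measured partners and junction genes, 5 rose and 1 fell with decitabine plus panobinostat (42.9% called, median 0.089). With decitabine plus valproic acid 4 rose and 0 fell (28.6%, median 0.11). JUP, or plakoglobin, which links cadherins to the cytoskeleton, averaged 8.72 with decitabine plus panobinostat, 8.50 with decitabine plus valproic acid, 8.23 with valproic acid and 7.68 with panobinostat, against 6.81 in control. These were rises of 3.78-fold (adjusted p = 2.66e-05), 3.23-fold (adjusted p = 0.000164), 2.69-fold (adjusted p = 0.00207) and 1.83-fold (adjusted p = 0.0379). With decitabine alone JUP averaged 7.58, near its mean with panobinostat, and was not called against control. NECTIN2, an adhesion molecule of adherens junctions, rose by 1.03 with decitabine (adjusted p = 0.0155) and 1.58 with decitabine plus valproic acid (adjusted p = 0.000167). PKP4, an armadillo protein of junctions, fell by 0.81 with decitabine plus panobinostat (adjusted p = 0.00699).

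Of 21 measured desmosomal and other cadherin superfamily genes, 3 rose with decitabine plus panobinostat (14.3%, beside 11.2% of all genes called higher, median 0.058). With decitabine plus valproic acid 4 rose (19%, beside 8.9%, median 0.040), and 0 fell in either. CLSTN2 and CLSTN3, the calsyntenins, are cadherin-like synaptic proteins. CLSTN2 rose by 1.52 with decitabine (2.87-fold, adjusted p = 0.0127) and CLSTN3 by 1.73 with decitabine plus panobinostat (3.32-fold, adjusted p = 0.00044). DSC3, a desmosomal cadherin, averaged 4.87 with panobinostat against 3.50 in control, a 2.59-fold rise (adjusted p = 3.17e-06). Its interaction term of decitabine with panobinostat was -1.13 (SE 0.17, adjusted p = 0.00462).

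Among 20 measured regulators of the protocadherin cluster, 2 rose and 4 fell with decitabine plus panobinostat (30% called, beside 23.2% of all genes), with a median of -0.076. DNMT3B, a de novo DNA methyltransferase, rose by 1.23 with decitabine plus panobinostat (2.35-fold, adjusted p = 0.000153), 1.40 with decitabine plus valproic acid (adjusted p = 9.76e-05) and 0.82 with decitabine (adjusted p = 0.0207). CTCF averaged 10.01 with decitabine plus panobinostat and 10.10 with panobinostat, against 10.45 in control, and fell by 0.44 (adjusted p = 0.00338) and 0.36 (adjusted p = 0.0367). The cohesin subunits STAG1 and STAG2 fell by 0.62 (adjusted p = 0.000115) and 0.59 (adjusted p = 0.00311) with decitabine plus panobinostat. Of 17 measured transcription factors of CDH1 and epithelial state, 2 rose and 1 fell with decitabine plus panobinostat (17.6% called, beside the same 23.2%). GRHL1 had the largest change of that list, a rise of 0.93 (adjusted p = 0.0198). SNAI1, a repressor of CDH1, rose by 0.91 (adjusted p = 0.0153), and ESRP2, an epithelial splicing regulator, fell by 0.56 (adjusted p = 0.0231). Of 14 measured proteases that cut cadherins, 4 rose and 1 fell in that comparison (35.7% called, beside the same 23.2%). MMP14 rose by 0.83 (adjusted p = 0.00327) and ADAM10 by 0.49 (adjusted p = 0.00276), while ADAM15 fell by 0.71 (adjusted p = 0.0153). With decitabine plus valproic acid the shares called were 15% for regulators, 5.88% for transcription factors and 28.6% for proteases, beside 17% of all genes.

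The named genes whose log2 signal was most like that of a beta gene over the 18 arrays were found by Pearson correlation among 14883 genes. For PCDHB7 they were CRISPLD2 (r = 0.957), CEMIP (0.943), NFE2L3 (0.925), DHRS2 (0.923) and MALAT1 (0.915). For PCDHB9 they were led by TRPC5OS (0.882) and ABHD8 (0.871), and for PCDHB10 by SRP54 (0.840) and BICDL1 (0.835). The points share the group structure, and these values are a description with no test.

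The label of a myeloid line was set against markers. Of 6 measured monocytic and myeloid markers, SPI1, CD4, CSF1R, MPO and LYZ lay above the array median in every group and CD14 in none. In control 62.8% of all named genes also lay above it, as did all 3 T and NK cell markers and PAX5. This position therefore does not set the label apart. With decitabine plus panobinostat CSF1R averaged 6.35 against 4.34 in control and LYZ 9.57 against 7.33. SPI1 averaged 6.12 against 6.97, MPO 11.35 against 12.28, CD4 9.63 against 9.74 and CD14 3.33 against 3.45. Lists of markers of other cell types were not tested, and their values follow. The mean signal of 6 epithelial markers was 4.37 to 4.70 with decitabine plus panobinostat, 4.26 to 4.61 with decitabine plus valproic acid and 4.12 to 4.33 in control, with 4, 4 and 1 of them above the array median. The range with decitabine plus valproic acid overlapped control. That of 3 T and NK cell markers was 5.96 to 6.28, 6.08 to 6.12 and 5.30 to 5.36 in the same groups, and that of 4 endothelial markers 3.96 to 4.0, 3.90 to 4.04 and 3.55 to 3.67. Members of these lists differed from control in both directions. CD2 averaged 5.85 with decitabine plus panobinostat against 3.96 in control, NCAM1 8.79 against 8.05 and GNLY 3.87 against 3.98. PECAM1, which myeloid cells also express, averaged 5.47 against 3.76, while VWF averaged 3.43 against 3.32, KDR 3.18 against 3.28 and CLDN5 3.86 against 4.12. The mean of 3 neuronal markers overlapped control, at 3.77 to 3.94 with decitabine plus panobinostat, 3.78 to 3.80 with decitabine plus valproic acid and 3.71 to 3.85 in control. That of 2 stromal markers was 3.55 to 3.74, 3.47 to 4.10 and 3.27 to 3.40. PAX5, the measured B cell marker, was 5.46 to 6.10 with valproic acid against 4.90 to 5.07 in control. It lay under control with decitabine (4.01 to 4.58) and decitabine plus panobinostat (4.16 to 4.70). With decitabine plus valproic acid (4.76 to 5.49) and panobinostat (4.91 to 5.31) it overlapped control. Their part in the results for the protocadherins was not tested.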

How the data were processed

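Values were the deposited log2 signals, made by the authors with RMA (background correction, quantile normalisation and probe set summary) per the submitters' processing notes; its version and the array's genome build are not given in the sources used here. The raw arrays were not used. Of 48226 probe sets, 16098 carried 1 symbol in the platform annotation, 0 several and 32128 none. The brightest probe set by mean over all arrays stood for each of 779 genes with more than 1. No gene was removed for a low signal. RMA compresses low signals, so changes near background can be understated, and the number of arrays limits the precision.

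limma 3.58.1 in R 4.3.3 fitted 1 mean per group to 18 arrays (12 residual degrees of freedom, empirical Bayes), with 13 comparisons, each adjusted by Benjamini-Hochberg over 14884 genes. The code was tested on simulated data. Replicate numbers were checked as pairs: over 45 same-numbered pairs of groups, deviations from group means correlated by -0.11 to 0.10, with 1 pair over 0.1, so the numbers were not taken to pair samples. Alternatives were a replicate block, only the compared arrays, the mean of a gene's probe sets, genes under the median signal (4.64) left out, an intensity trend, and each array left out in turn.

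The gene set, lists and tests were chosen with earlier results of these data known. Genes are named if called in any comparison, if listed by symbol, or, for the partner lists, as at most 4 called genes a comparison by size of change. A planned set of silent olfactory receptor genes held 1 measured gene and was not used. No batch or scan date was given.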

Additional observations from a re-analysis of the deposited data

How the results depend on the processing

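The 28 calls kept their direction in all 299 refits under other settings, 228 of them with the call kept and 71 with it lost, and 12 calls were kept in every refit. Left-out arrays moved the number of the 34 genes called, with ranges of 0 to 1 for decitabine, 0 to 0 for panobinostat, 1 to 3 for valproic acid, 5 to 7 for decitabine plus panobinostat and 2 to 5 for decitabine plus valproic acid against control. Against decitabine they were 4 to 6 with panobinostat and 0 to 6 with valproic acid added. For decitabine added they were 1 to 5 against panobinostat and 0 to 1 against valproic acid. They were 0 to 1 between the inhibitors, 0 to 1 between the combinations and 0 to 0 for either interaction. With only the compared arrays fitted, which leaves fewer degrees of freedom, the count was 0 for decitabine, 2 for panobinostat (PCDHB12 and PCDHB9) and 2 for decitabine plus valproic acid (PCDHB10 and PCDHB9) against control, 0 for valproic acid added to decitabine, 4 for panobinostat added to decitabine (PCDHB8 and PCDHB9 lost), and 1 for the interaction of decitabine with panobinostat (PCDHB7). With genes under the median signal left out, which keeps 5 of the 34, it was 0 for decitabine against control, 1 for decitabine added to panobinostat (PCDHB16) and 1 lower for decitabine added to valproic acid (PCDHB9). With an intensity trend it was 1 for decitabine added to panobinostat and 1 for the interaction with panobinostat, PCDHB7 in both, and with decitabine plus valproic acid against control CDH23 and PCDHB16 were lost and PCDHB5 and PCDHB7 gained; the cause was not tested. With the replicate block, although the numbers were not taken to pair samples, it was 2 for panobinostat against control, 1 lower for decitabine added to valproic acid and 1 lower for panobinostat against valproic acid, PCDHB9 being the gene gained in each. The block also added PCDHB12 for valproic acid against control, PCDHB9 and PCDHB12 for valproic acid added to decitabine, and PCDHB12 (lower) for decitabine added to panobinostat, and lost PCDHB16 for decitabine plus valproic acid against control. The mean of all probe sets moved no count by more than 1.5 times. Each called gene had 1 probe set, so that setting left its own values unchanged, and those refits say little about stability. In control, 11 of 13 non-clustered protocadherins and all 3 beta pseudogenes lay under the array median, where a low signal limits what a change can show. The same held for PCDHB7 and for PCDHB1, PCDHB4, PCDHB5, PCDHB6, PCDHB11 and PCDHB15, beta genes called in no comparison.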
